A study of Mus musculus with 8 samples.

Results

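The genes described here control FGF23, inorganic phosphate and pyrophosphate in bone. They are 10 of the 43346 genes counted: Fgf23, Galnt3, Fam20c, Phex, Enpp1, Ank, Alpl, Phospho1, Slc20a1 and Slc20a2. They were listed by symbol for their known function, with earlier results of these data known, and each matched 1 row of the count table. RNA was sequenced from bone fractions enriched for osteocytes, the cells buried in mineralized matrix, taken from C57BL/6 mice aged 12 weeks with no treatment or altered gene named. There were 3 libraries from the femur (a long bone; libraries 1, 2 and 4), 3 from the frontal bone (1, 2 and 4) and 2 from the parietal bone (2 and 4). Frontal and parietal bones are flat bones of the skull vault, the calvaria, and all 8 libraries shared strain, age and enrichment. Whether each library is 1 animal or a pool is not stated, and the p-values below therefore describe how these 8 libraries vary, part of which may be technical.

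FGF23 is a hormone made by osteocytes and osteoblasts that makes the kidney excrete phosphate and lowers active vitamin D. Whether it leaves the cell intact is set by modifying enzymes: GALNT3 adds a sugar that protects it from cleavage, and FAM20C adds a phosphate that favours cleavage. Loss of PHEX, an endopeptidase on the osteocyte surface, raises FGF23. Mineral forms where phosphate is high and pyrophosphate, an inhibitor of crystal growth, is low. ENPP1 makes pyrophosphate from extracellular ATP, ANK moves ATP or pyrophosphate out of the cell, ALPL (tissue-nonspecific alkaline phosphatase) breaks pyrophosphate down, PHOSPHO1 frees phosphate inside matrix vesicles, and SLC20A1 and SLC20A2 carry phosphate into cells.

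On GRCm38, the GENCODE annotation places Fgf23 on the plus strand at chr6:127072902-127081408 and Phex on the minus strand at chrX:157162075-157415312. Galnt3 lies at chr2:66082766-66124994 (minus), Fam20c at chr5:138754514-138810077 (plus), Enpp1 at chr10:24637914-24712159 (minus) and Ank at chr15:27466677-27594909 (plus). Alpl lies at chr4:137741733-137796384 (minus), Phospho1 at chr11:95824499-95832140 (plus), Slc20a1 at chr2:129198764-129211616 (plus) and Slc20a2 at chr8:22476788-22569612 (plus). RefSeq promoters (GRCm38.p6, from 250 bases before to 50 after the start) were matched for 9 of these genes, at 11 start sites. The promoters of Fgf23 and Phex are shown because the ratio of this hormone to this regulator differed most between the bones among the ratios given below, and because theirs were the only promoters of the 9 genes with TTTAAA, in capitals. The 100 bases before each start are printed, on the gene's strand (Fgf23 chr6:127072802-127072901, plus; Phex chrX:157415287-157415386, minus).
Fgf23: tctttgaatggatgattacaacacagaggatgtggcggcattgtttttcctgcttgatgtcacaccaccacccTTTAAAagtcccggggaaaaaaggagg
Phex: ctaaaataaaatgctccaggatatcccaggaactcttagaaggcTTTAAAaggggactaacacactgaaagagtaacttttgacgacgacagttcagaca

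The TTTAAA run begins 27 bases before the start in Fgf23 and 56 before it in Phex. This run was chosen after the sequences were seen, and 13.2% of 32851 mouse promoters of the same length hold it. The Fgf23 promoter (49.0% GC, 6 CG dinucleotides) and the Phex promoter (38.7% GC, 4 CG dinucleotides) lay below the median GC of all promoters, 52.7%, and its median of 7 CG dinucleotides. The first-listed promoters of the other 7 genes held 61.7 to 80.7% GC and 22 to 53 CG dinucleotides, with Enpp1 lowest in both, Fam20c highest in GC and Ank highest in CG. The second starts of Slc20a1 (52.0% GC, 6 CG dinucleotides) and Alpl (54.3% GC, 4 CG dinucleotides) were close to Fgf23 and Phex in these counts. Both strands were also searched for the RUNX core TGTGGT (16.8% of all promoters), the AP-1 site TGANTCA (7.81%) and the TATA box TATAAA (13.6%). TGTGGT was found in Enpp1 and Slc20a1, TGANTCA in Phospho1, and TATAAA in Slc20a1 and at the second start of Alpl. These matches describe letters in the window and are not evidence of binding.

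Depth ran from 6259229 to 13461622 gene counts per library. Of the 10 genes, 9 passed the filter on low counts, and the lowest count among them was 22, for Fgf23 in parietal library 2. Levels are given as CPM on edgeR's TMM scale, in which each library's counts are brought to a common total on the assumption that most genes do not differ. In calvaria against femur, edgeR called 61.0% of all genes tested at an adjusted p under 0.05, so that assumption is in doubt there. The label "osteocytes" was checked against 10 marker genes such as Dmp1, Mepe and Sost. All 10 were detected. Their summed share of counts was 2.47 to 4.79% in femur, 0.172 to 0.226% in frontal and 0.251 to 0.259% in parietal libraries. Dmp1 made up most of the femur sum, with a mean of 35309 CPM there against 3136 CPM for Mepe. Of the 10, 8 were lower in calvaria than in femur and 1 was higher. Of all genes tested, 31.4% were lower and 29.6% higher. The median log2 fold change of the 10 markers was -2.99, against -6.04 for Dmp1. Osteoblast markers (9 genes) made up 6.29 to 8.75% in femur and 1.19 to 3.21% in the skull libraries. Erythroid markers (9 genes) went the other way, with 1.18 to 2.88% in femur and 6.92 to 11.0% in skull, as did granulocyte markers (9 genes), with 1.61 to 4.19% and 6.15 to 8.36%. In bulk RNA, fewer cells of a type and less RNA per cell cannot be told apart. For this reason the differences of the members over calvaria are also given with the osteocyte markers, or the osteoblast markers, held equal in all libraries. Markers of chondrocytes (8 genes, 0.0291 to 0.0787% in femur and 0.0023 to 0.00394% in skull), of endothelium (6 genes, 0.0454 to 0.0533% and 0.0211 to 0.0268%) and of periosteum and tendon (5 genes, 0.0403 to 0.0485% and 0.0069 to 0.0178%) were lower in skull too, and their part in the results was not tested. Markers of monocytes and macrophages (6 genes, 0.262 to 0.536% in femur and 1.26 to 1.69% in skull) were higher in skull. So were the shares of B cell, T and NK cell, marrow stroma and adipocyte, skeletal muscle and proliferation markers. Osteoclast markers were higher in skull by mean, with overlap. The part of these cell types was not tested either.

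Skull was first compared with femur. On the TMM scale, Galnt3, Fam20c, Phex, Enpp1, Ank and Alpl were far lower in both skull bones than in femur. Fgf23 and the phosphate importers fell by less in parietal bone and did not pass in frontal bone. Of the 9 genes tested, 8 fell in calvaria (the mean of frontal and parietal) and none rose, where 31.4% of all 15511 genes tested fell, 29.6% rose and 61.0% were called in either direction. With the osteocyte markers held equal, which moves the median gene to a log2 fold change of 2.87, 2 fell and 5 rose, and with the osteoblast markers held equal (median gene 1.25) 6 fell and 1 rose. Against femur, 6 of 9 fell in frontal bone (background 28.5% of genes lower, 55.7% called) and 9 of 9 fell in parietal bone (28.6% lower, 55.7% called). Galnt3, Fam20c, Phex, Enpp1, Ank and Alpl did not overlap between the 5 skull and 3 femur libraries, as was so for 53.5% of all genes tested. Against femur alone, these 6 did not overlap in frontal bone (63.0% of all genes tested), and all 9 did not overlap in parietal bone, each lower (72.0%). Both skull bones are set against the same femur libraries, so these comparisons are not independent of each other.

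**Figure D1:**
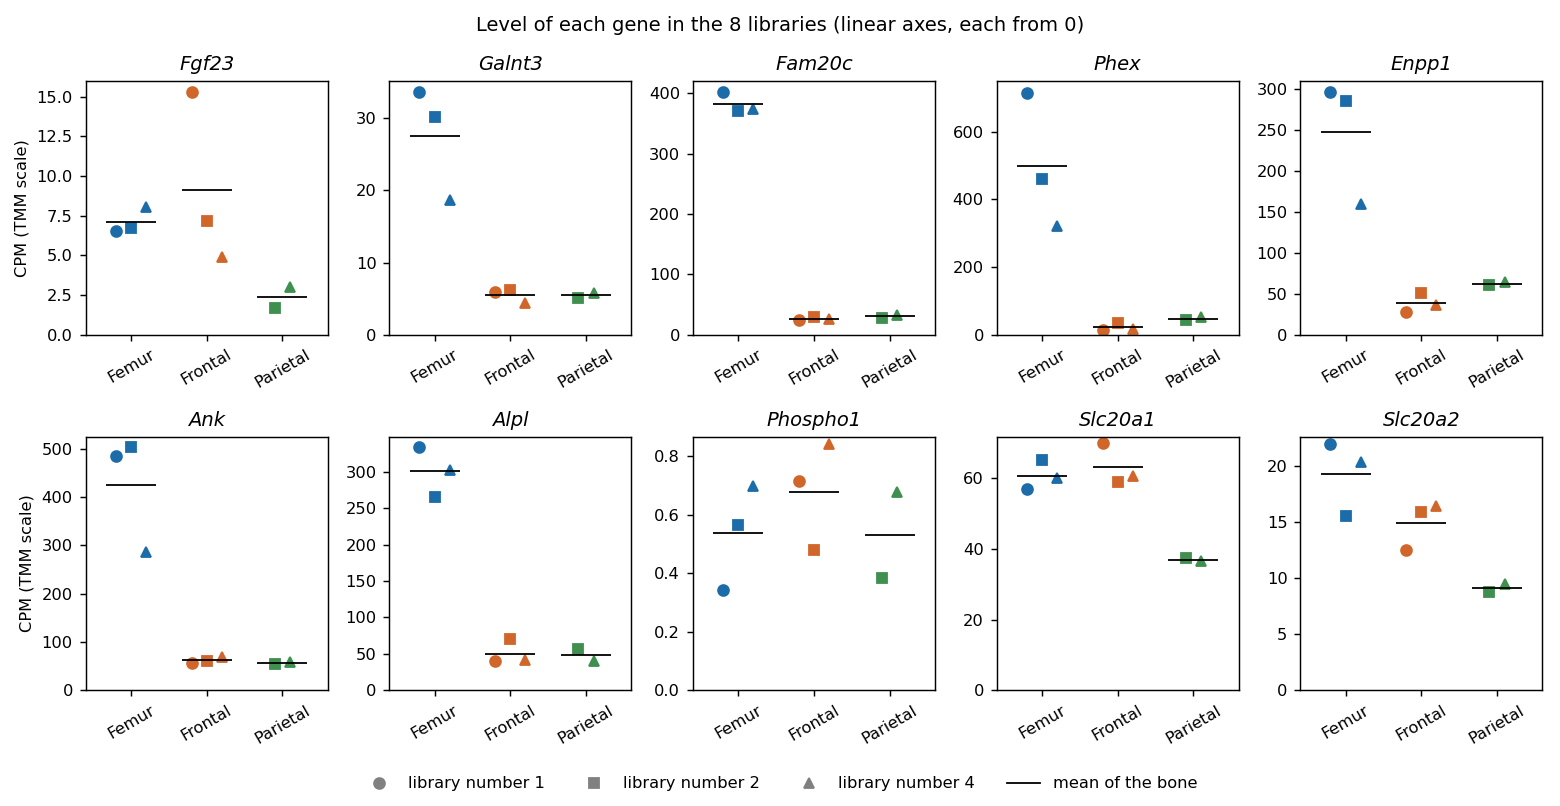
Level of each of the 10 genes in every library, in CPM on the TMM scale (vertical axes, linear, each from 0), by bone (horizontal axis), with 1 point per library and a line at the mean. Phex runs from 321 to 715 CPM in femur and from 13.1 to 51.2 CPM in skull, whereas Fgf23 overlaps between femur and frontal bone and is lowest in the 2 parietal libraries.

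Fgf23, the hormone, was a low-count gene whose frontal and parietal libraries did not overlap, as was so for 47.5% of all genes tested. Its level was 6.53, 6.70 and 8.05 CPM in femur libraries 1, 2 and 4, from 38, 71 and 69 counts. In frontal libraries 1, 2 and 4 it was 15.3, 7.17 and 4.91 CPM (128, 75 and 35 counts), and in parietal libraries 2 and 4 it was 1.68 and 3.01 CPM (22 and 31 counts). Frontal bone overlapped femur on both sides, and both parietal libraries lay below all others. The 95% Poisson interval of frontal library 1, 12.8 to 18.2 CPM, did not overlap those of frontal library 2 (5.64 to 8.99 CPM) and frontal library 4 (3.42 to 6.84 CPM), so that library differed from the other two by more than counting error. These intervals cover counting error only. The mean was 7.10 ± 0.831 CPM in femur (SD, n = 3), 9.13 ± 5.46 CPM in frontal (n = 3) and 2.34 ± 0.937 CPM in parietal bone (n = 2).

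Against femur, Fgf23 had a log2 fold change of 0.36 ± 0.37 in frontal bone (SE, edgeR quasi-likelihood adjusted p = 0.431) and did not pass. On the marker scales it did, at 3.48 with the osteocyte (adjusted p = 1.8e-06) and 2.04 with the osteoblast markers held equal (adjusted p = 2.7e-05). In parietal bone it fell by 1.62 ± 0.47 on the log2 scale (edgeR adjusted p = 0.0113). That call was lost without parietal library 2 (-1.27, adjusted p = 0.112), and with the osteoblast (-0.82, adjusted p = 0.204) or the osteocyte markers held equal (1.03, adjusted p = 0.0677). Over both skull bones the log2 fold change was -0.63 ± 0.35 (edgeR adjusted p = 0.141), which passed without frontal library 1 (-0.92, adjusted p = 0.0133) and, in the other direction, with the osteocyte markers held equal (2.25, adjusted p = 9.0e-05).

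Galnt3, whose enzyme protects FGF23 from cleavage, stood at 33.7, 30.2 and 18.7 CPM in femur. It stood at 5.98, 6.12 and 4.35 CPM in frontal and at 5.12 and 5.82 CPM in parietal bone. Every skull library was below every femur library, and the skull bones did not separate. The log2 fold change of calvaria against femur was -2.32 ± 0.21 (edgeR adjusted p = 3.3e-06), with -2.31 in frontal and -2.33 in parietal bone. With the osteocyte markers held equal the direction turned (0.59), and with the osteoblast markers held equal it did not (-1.06).

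Fam20c, the secretory kinase of FGF23 and of matrix phosphoproteins, had the smallest adjusted p of the 9 genes tested. Its level was 401, 371 and 373 CPM in femur, 23.5, 29.2 and 25.8 CPM in frontal, and 27.5 and 32.98 CPM in parietal bone. The femur libraries spread by little (382 ± 17.0 CPM, SD, n = 3), and the skull libraries all lay far below them. Its log2 fold change in calvaria was -3.76 ± 0.12 (edgeR adjusted p = 7.4e-09). It fell with the osteoblast markers held equal (-2.52) and with the osteocyte markers held equal (-0.89, adjusted p = 0.000149).

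Phex had the largest fold change of the 9 genes tested. It stood at 715, 462 and 321 CPM in femur libraries 1, 2 and 4. In frontal bone it stood at 13.1, 33.2 and 17.3 CPM, and in parietal bone at 42.0 and 51.2 CPM. The groups did not overlap: frontal bone was lowest, parietal bone next and femur highest by far, with wide spread within femur. The log2 fold change in calvaria was -3.98 ± 0.33 (edgeR adjusted p = 4.8e-06), with -4.54 for frontal and -3.42 for parietal bone. Phex fell as well with the osteoblast (-2.74) and with the osteocyte markers held equal (-1.07, adjusted p = 0.000507).

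**Figure D2:**
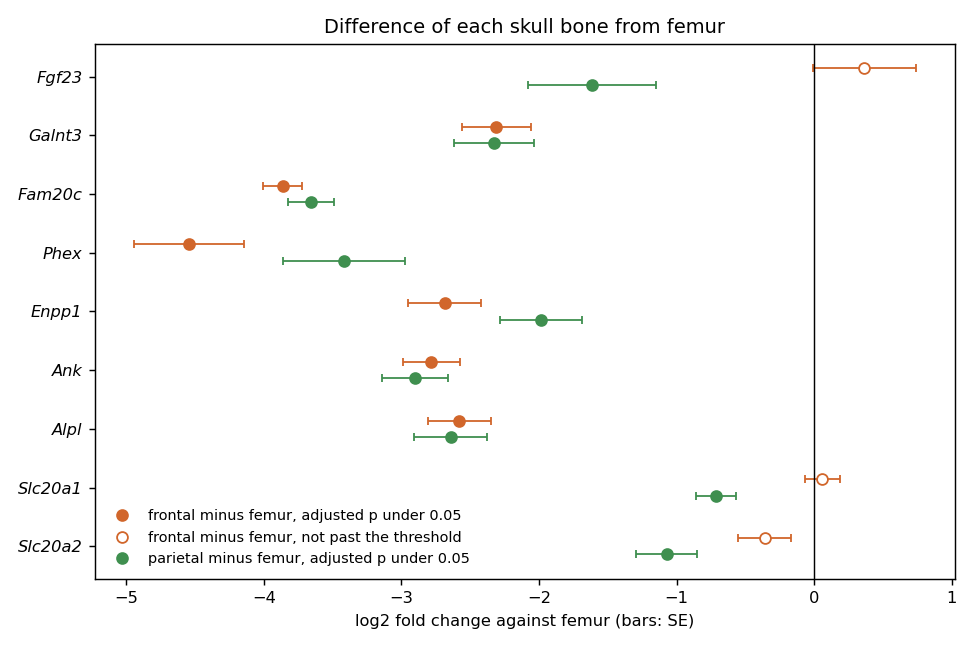
Log2 fold change against femur (horizontal axis, TMM scale) of the 9 genes tested (vertical axis), with 1 marker per skull bone and bars of 1 SE on each side. From Galnt3 to Alpl both bones lie between -1.99 and -4.54, while Fgf23 lies at 0.36 in frontal and -1.62 in parietal bone; with the osteocyte markers held equal, Galnt3, Enpp1, Ank and Alpl have positive values over calvaria.

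Both genes that supply extracellular pyrophosphate were lower in skull on the TMM scale, though not with the osteocyte markers held equal. Enpp1 stood at 296, 285 and 159.5 CPM in femur, at 27.0, 51.2 and 36.5 CPM in frontal, and at 60.5 and 63.8 CPM in parietal bone. All skull libraries were below all femur libraries, and both parietal libraries were above all frontal ones. The log2 fold change in calvaria was -2.34 ± 0.22 (edgeR adjusted p = 4.2e-06). With the osteoblast markers held equal it was -1.08, and with the osteocyte markers held equal it was 0.56 (adjusted p = 0.0177).

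Ank stood at 485, 503 and 285 CPM in femur libraries 1, 2 and 4, at 56.1, 60.2 and 68.8 CPM in frontal, and at 54.7 and 58.9 CPM in parietal bone. Femur library 4 was the lowest femur library for Ank, Enpp1, Phex and Galnt3, and it was still above every skull library for each. The other genes tested differed: Fam20c, Alpl and Slc20a2 were lowest in femur library 2, and Fgf23 and Slc20a1 in femur library 1. The osteocyte marker share of femur library 4 was the lowest of the femur libraries, at 2.47%, and a link to the members was not tested. By mean, most of that share in femur is Dmp1 alone. Ank's log2 fold change in calvaria was -2.84 ± 0.17 (edgeR adjusted p = 1.8e-07), and it was 0.06 with the osteocyte markers held equal (adjusted p = 0.758).

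Alpl, the phosphatase that breaks pyrophosphate down, stood at 334, 266 and 303 CPM in femur. It stood at 39.7, 70.1 and 40.9 CPM in frontal and at 55.96 and 40.4 CPM in parietal bone. Skull libraries were all lower, and frontal and parietal libraries overlapped. The log2 fold change in calvaria was -2.61 ± 0.19 (edgeR adjusted p = 6.5e-07). It was -1.41 with the osteoblast markers held equal and 0.26 with the osteocyte markers held equal, where it did not pass (adjusted p = 0.257).

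Phospho1 was near the limit of detection in all bones. It had 2, 6 and 6 counts in femur, 6, 5 and 6 in frontal, and 5 and 7 in parietal bone, and it did not pass the filter, so no test was made. The means were 0.537 ± 0.18 CPM (SD, n = 3), 0.679 ± 0.185 CPM (n = 3) and 0.531 ± 0.21 CPM (n = 2), and the bones overlapped. Of its 2029 exon bases, 1818 (89.6%) are shared with exons of Zfp652 on the same strand or Abi3 on the other. Zfp652 had 87 to 215 counts and Abi3 9 to 30. How reads in shared bases were counted is not given in the sources used here, so a low Phospho1 count does not show a low level.

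The phosphate importers had smaller fold changes on the TMM scale than the 6 genes without overlap. Slc20a1 stood at 56.9, 65.1 and 60.1 CPM in femur, 70.2, 58.9 and 60.8 CPM in frontal, and 37.5 and 36.5 CPM in parietal bone. Frontal and femur libraries overlapped, and both parietal libraries lay below them. Against femur the log2 fold change was 0.06 ± 0.13 in frontal bone (edgeR adjusted p = 0.721), and Slc20a1 fell by 0.72 ± 0.15 in parietal bone (edgeR adjusted p = 0.00137). Over calvaria it fell by 0.33 ± 0.11 (edgeR adjusted p = 0.0256). That call was lost without femur library 2 (-0.28, adjusted p = 0.11), parietal library 2 (-0.35, adjusted p = 0.0565) or parietal library 4 (-0.34, adjusted p = 0.0591), and in 5 of 10 other settings, and the sign turned on the 2 marker scales. The highest adjusted p over all 18 alternatives was 0.41.

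Slc20a2 stood at 22.01, 15.6 and 20.4 CPM in femur, 12.6, 16.0 and 16.4 CPM in frontal, and 8.79 and 9.51 CPM in parietal bone. The parietal libraries were lowest, and frontal bone overlapped femur. It fell in calvaria by 0.72 ± 0.17 (edgeR adjusted p = 0.00354) and in parietal bone by 1.07 ± 0.22 (edgeR adjusted p = 0.00158), and in frontal bone its log2 fold change was -0.36 ± 0.19 (edgeR adjusted p = 0.132). The sign of both importers over calvaria depends on the scale: with the osteocyte markers held equal Slc20a1 was at 2.54 and Slc20a2 at 2.15, and with the osteoblast markers held equal they were at 0.92 and 0.53. In frontal bone both were higher on these scales, Slc20a1 at 3.13 and 1.76 and Slc20a2 at 2.69 and 1.32. Over calvaria, all 9 genes tested lay below the median gene on the TMM scale. They did so on both marker scales too. Those scales shift all genes by nearly the same amount, so that is the same result restated and not further support.

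**Figure D3:**
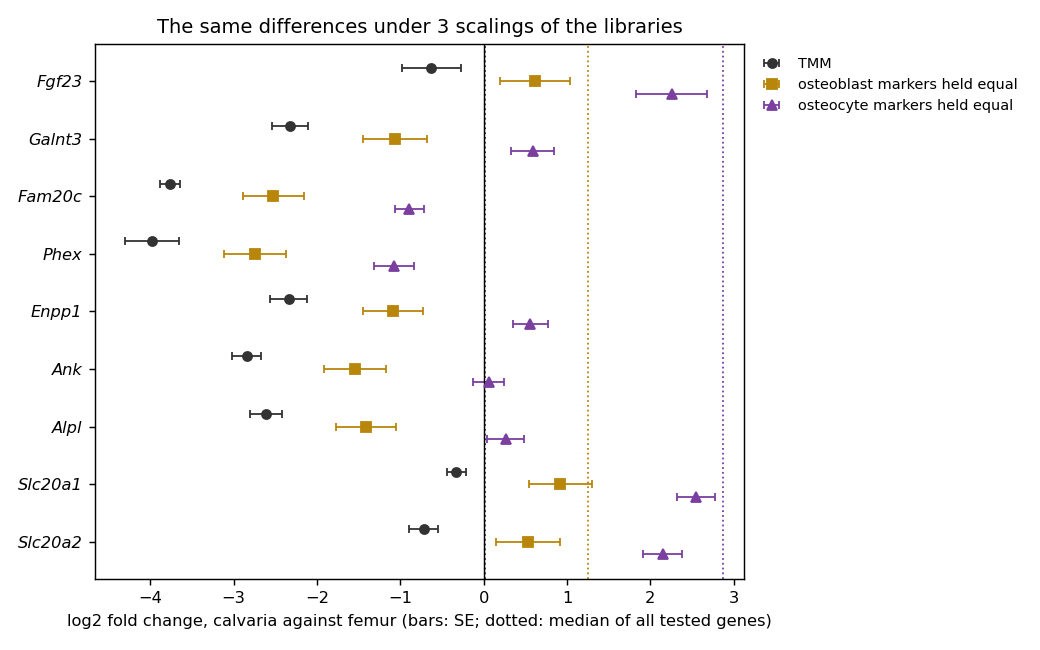
Log2 fold change of calvaria against femur (horizontal axis) for the 9 genes tested (vertical axis), with libraries scaled by TMM, to the osteoblast markers or to the osteocyte markers, with bars of 1 SE on each side and a dotted line at the median gene of each scale. On the last scale Phex (-1.07) and Fam20c (-0.89) stay below 0, Ank (0.06) and Alpl (0.26) lie near it, and Fgf23 (2.25), Slc20a1 (2.54) and Slc20a2 (2.15) lie above it; the median of all genes tested is 0.01, 1.25 and 2.87 on the 3 scales.

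Frontal bone was then compared with parietal bone, which also tests whether a gene's difference from femur differed between the skull bones. Fgf23 and Slc20a1 were higher in frontal bone, 2 of 9 genes tested, and none was lower, where 3.91% of all genes tested were higher, 3.29% lower and 7.21% were called in either direction. DESeq2's Wald test called 3 higher, with Slc20a2 the third. At an unadjusted p under 0.05 edgeR had 3 higher and 2 lower (Phex and Enpp1). Fgf23, Slc20a1 and Slc20a2 were above parietal bone in every frontal library, and Phex and Enpp1 below it in every one. With 3 and 2 libraries, 47.5% of all genes tested did not overlap between the bones.

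Fgf23 was higher in frontal bone by 1.98 ± 0.46 on the log2 scale (edgeR adjusted p = 0.0361), and Slc20a1 by 0.77 ± 0.15 (edgeR adjusted p = 0.0281). Neither call withstood every loss of a library. Fgf23 did not pass without frontal library 1 (1.40, adjusted p = 0.13), parietal library 2 (1.64, adjusted p = 0.191), parietal library 4 (2.48, adjusted p = 0.227) or femur library 2 (1.98, adjusted p = 0.0638). Slc20a1 did not pass without the same libraries (0.70, 0.83, 0.80 and 0.77, adjusted p = 0.129, 0.156, 0.227 and 0.0574). In those 4 fits edgeR called 0 genes of the whole table, with 2520 to 4059 genes at an unadjusted p under 0.05, against 1118 called and 4460 in the fit to all 8 libraries. Both kept their direction in every alternative run, and each passed in 13 of 18 (adjusted p from 5.3e-06 to 0.227 for Fgf23 and from 0.000312 to 0.227 for Slc20a1).

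Phex and Enpp1 had lower values in frontal than in parietal bone but did not pass. The log2 fold change was -1.12 ± 0.40 for Phex (edgeR adjusted p = 0.101) and -0.70 ± 0.28 for Enpp1 (edgeR adjusted p = 0.13). Frontal library 2 was the highest of the frontal libraries for both, and without it both passed (-1.62, adjusted p = 0.0181, and -0.97, adjusted p = 0.0405). That library also had the highest osteoblast marker share of the frontal libraries, 3.21%, against 1.19 and 1.20% in the other two and 2.76 and 2.96% in parietal bone. The part of osteoblast content in these differences was not tested. In the edgeR fit with the osteoblast markers held equal, Phex was at -0.42 (adjusted p = 0.478) and Enpp1 at 0.09 (adjusted p = 0.88). That scale raises the values of all genes in frontal against parietal bone by a similar amount, so the shift is not particular to Phex and Enpp1. Slc20a2 had a log2 fold change of 0.71 ± 0.22 (edgeR adjusted p = 0.0678; DESeq2 adjusted p = 0.0413). Galnt3 (0.02 ± 0.29), Fam20c (-0.20 ± 0.15), Ank (0.12 ± 0.22) and Alpl (0.06 ± 0.24) did not pass.

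Ratios of 2 genes within a library do not depend on how libraries are scaled, and 8 were computed as log2 ratios of counts. They come from the same counts as the fold changes above, so they describe those results in another form and are not separate support. The largest differences between calvaria and femur were those of Fgf23 to Phex and Fgf23 to Fam20c. Fgf23 to Phex was -6.76, -6.10 and -5.31 in femur, 0.22, -2.20 and -1.80 in frontal, and -4.61 and -4.07 in parietal bone. The 3 bones did not overlap: Fgf23 had most counts relative to Phex in frontal bone and least in femur. Calvaria exceeded femur by 3.56 (exact two-sided permutation p = 0.0357, adjusted over the 8 ratios 0.0952). Fgf23 to Fam20c was -5.92, -5.78 and -5.52 in femur, -0.62, -2.02 and -2.38 in frontal, and -4.002 and -3.43 in parietal bone, a difference of 3.25 (exact permutation p = 0.0357, adjusted 0.0952). Fgf23 to Galnt3 differed by 1.75 (exact permutation p = 0.0536, adjusted 0.107).

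For the genes of pyrophosphate supply and breakdown the differences over calvaria were smaller. Alpl to Enpp1 was 0.17, -0.10 and 0.93 in femur, 0.55, 0.45 and 0.16 in frontal, and -0.11 and -0.66 in parietal bone. Frontal bone lay within the femur range, and both parietal libraries lay below all others. Parietal library 2 (-0.114) was only just below femur library 2 (-0.0975), and that gap was not set against counting error. The difference over calvaria was -0.26 (exact permutation p = 0.482, adjusted 0.551), from 0.05 with the frontal and -0.72 with the parietal libraries alone. Alpl to Ank differed by 0.15 (exact permutation p = 0.607, adjusted 0.607). Enpp1 to Ank was -0.71, -0.82 and -0.84 in femur, -1.05, -0.23 and -0.91 in frontal, and 0.15 and 0.12 in parietal bone. Only the 2 parietal libraries had more Enpp1 than Ank counts, and the difference over calvaria was 0.40 (exact permutation p = 0.321, adjusted 0.429). Slc20a1 to Slc20a2 was 1.37, 2.06 and 1.55 in femur, 2.48, 1.88 and 1.88 in frontal, and 2.09 and 1.93 in parietal bone, a difference of 0.39 (exact permutation p = 0.125, adjusted 0.2) with overlap. Phospho1 to Alpl differed by 2.79 (exact permutation p = 0.0179, adjusted 0.0952), from the Phospho1 counts of 2 to 7 above, which do not show its level. The smallest p that 56 splits of 5 and 3 libraries allow is 0.0179. After adjustment over 8 ratios, no ratio could pass unless several had a p at or near that floor together. None of the 8 ratios passed after adjustment, so this outcome says little, and a p above the threshold does not show equal ratios.

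**Figure D4:**
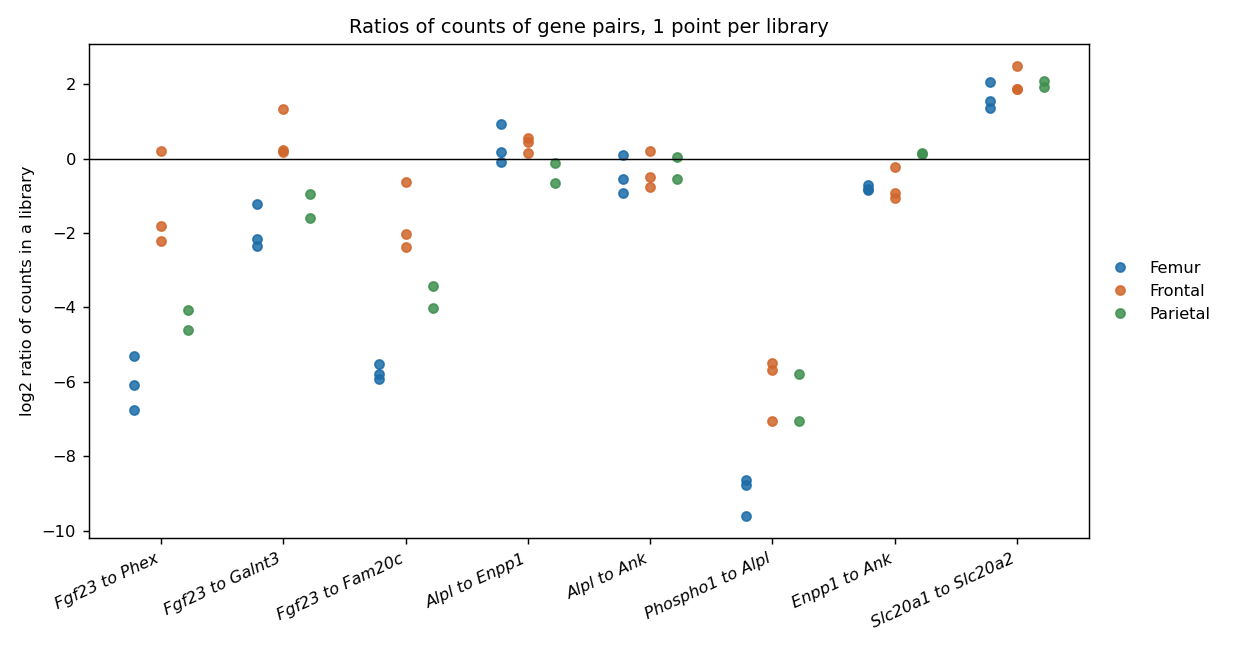
Log2 ratio of counts (vertical axis) for the 8 pairs of genes (horizontal axis), with 1 point per library, marked by bone. For Fgf23 to Phex femur lies between -6.76 and -5.31, parietal bone between -4.61 and -4.07 and frontal bone between -2.20 and 0.22, while for Alpl to Ank all 3 bones overlap and for Alpl to Enpp1 femur and frontal bone do.

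Levels of different genes were compared per kilobase of annotated exon. In femur the order was Ank (118 CPM per kilobase), Phex (79.4), Alpl (74.6), Fam20c (57.9), Enpp1 (24.1), Slc20a1 (10.9), Galnt3 (6.29), Fgf23 (3.91), Slc20a2 (3.11) and Phospho1 (0.265). Phex ranged from 51.0 to 114 CPM per kilobase, a range that overlapped those of Ank, Alpl and Fam20c, although Ank was above Phex in each of the 3 libraries. In frontal bone the order was Ank (17.1), Alpl (12.4), Slc20a1 (11.3), Fgf23 (5.03), Fam20c (3.97), Enpp1 (3.73), Phex (3.37), Slc20a2 (2.41), Galnt3 (1.25) and Phospho1 (0.335). Fgf23 there ranged from 2.71 to 8.43 CPM per kilobase and overlapped Fam20c, Enpp1 and Phex. In parietal bone Ank (15.7), Alpl (11.9), Phex (7.41), Slc20a1 (6.62) and Enpp1 (6.06) led, followed by Fam20c (4.59), Slc20a2 (1.47), Fgf23 (1.29), Galnt3 (1.25) and Phospho1 (0.262). Slc20a1 thus held rank 6 in femur, rank 3 in frontal and rank 4 in parietal bone, and Phex ranks 2, 7 and 3.

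**Figure D5:**
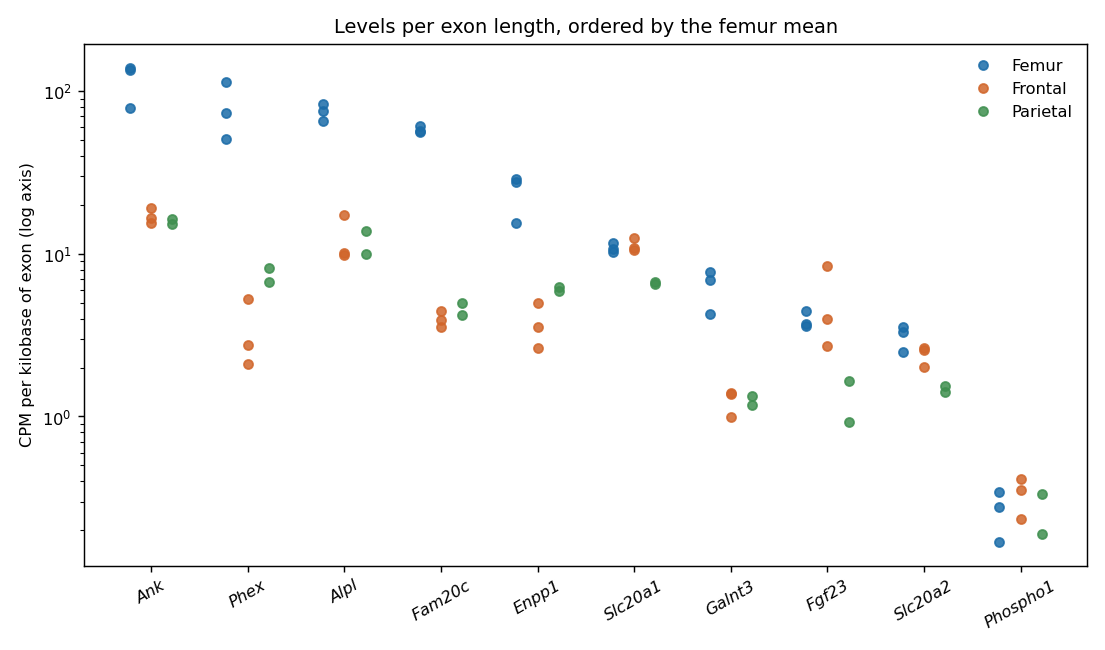
Level per kilobase of exon (vertical axis, CPM per kilobase, log axis) of the 10 genes (horizontal axis), with 1 point per library, marked by bone. Ank leads by mean in each bone, Phospho1 is lowest in each, and Fgf23 lies below Phex in femur (3.91 and 79.4) and above it by mean in frontal bone (5.03 and 3.37).

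Other genes of these pathways were read in 5 lists, beside the 31.4% of all genes tested that fell and the 29.6% that rose in calvaria. Holding the osteocyte markers equal moves the median of all genes by 2.87, so a list whose genes turn positive on that scale does what most genes do. Among 8 genes of FGF23 processing and bone-derived regulators, all 8 fell in calvaria against femur on the TMM scale, with a median log2 fold change of -2.88, against 0.01 for all genes tested; with the osteocyte markers held equal 3 fell and 2 rose. Dmp1, a matrix protein whose loss raises FGF23, had -6.04 ± 0.30 (edgeR adjusted p = 5.4e-08). Dmp1 and Mepe, also in this list, are themselves osteocyte markers and help set that scale. The proprotein convertases Pcsk6 (-4.41 ± 0.21) and Pcsk5 (-3.09 ± 0.19) and the pseudokinase partner of FAM20C, Fam20a (-4.15 ± 0.24), fell too. With the osteocyte markers held equal Pcsk6 was at -1.53 and Fam20a at -1.28, and Pcsk5 did not pass (-0.21, adjusted p = 0.382). Between the skull bones 1 of the 8 was called: Spp1, which encodes osteopontin, was lower in frontal bone (-1.06 ± 0.27, edgeR adjusted p = 0.0403), and it is named here after its value was seen. It is also one of the 9 osteoblast markers. Its call was lost in 9 of 18 alternatives, among them the osteoblast (-0.25, adjusted p = 0.741) and osteocyte scales (-0.70, adjusted p = 0.14), library size alone (-0.98, adjusted p = 0.0535), and the fits without femur library 2 (-1.06, adjusted p = 0.0699), frontal library 1 (-0.85, adjusted p = 0.148), frontal library 4 (-1.02, adjusted p = 0.0931), parietal library 2 (-1.04, adjusted p = 0.18) and parietal library 4 (-1.01, adjusted p = 0.257).

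Of 10 genes of FGF23 reception, vitamin D and parathyroid hormone signalling, 5 were tested, and 3 of them fell in calvaria (median -0.71), whereas 1 fell and 4 rose with the osteocyte markers held equal. The receptor Fgfr1 had 382 ± 46.1 CPM in femur (SD, n = 3), 36.6 ± 8.09 CPM in frontal (n = 3) and 31.3 ± 4.64 CPM in parietal bone (n = 2), a log2 fold change of -3.50 ± 0.16 (edgeR adjusted p = 3.2e-08), and -0.61 with the osteocyte markers held equal. Fgfr3 (-1.30 ± 0.20) and the vitamin D receptor Vdr (-0.71 ± 0.12) fell, and the parathyroid hormone receptor Pth1r had -0.59 ± 0.25 (edgeR adjusted p = 0.0575). Pth1r passed as lower in 7 of 18 alternatives, DESeq2 (adjusted p = 0.0401) and limma-voom (adjusted p = 0.039) among them, and in the fits without frontal library 2 (-0.79, adjusted p = 0.00235), frontal library 4 (-0.47, adjusted p = 0.0486) and parietal library 2 (-0.74, adjusted p = 0.0476). Kl, which encodes the co-receptor Klotho, had 0 to 6 counts per library and was not tested, nor were Klb, Fgfr4, Cyp27b1 and Cyp24a1.

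Of 6 other phosphate transporters, 3 were tested, and 1 fell in calvaria on the TMM scale, where all 3 were positive with the osteocyte or the osteoblast markers held equal. It was Xpr1, the phosphate exporter (-0.70 ± 0.14, edgeR adjusted p = 0.000986). The mitochondrial carrier Slc25a3 (-0.27 ± 0.12, edgeR adjusted p = 0.0649) and the glucose-6-phosphate transporter Slc37a4 (0.40 ± 0.18, edgeR adjusted p = 0.0807) did not pass. Without femur library 4 Slc25a3 passed as well (-0.37, adjusted p = 0.0203), which made 2.

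Of 14 other genes of pyrophosphate, nucleotides and matrix vesicles, 12 were tested, and 5 fell and 3 rose in calvaria (median -0.25), whereas all 12 rose with the osteocyte markers held equal. The inorganic pyrophosphatases went in opposite directions on the TMM scale: Ppa1, the cytosolic enzyme, fell from 130 ± 37.9 CPM in femur (SD, n = 3) to 39.5 ± 3.999 CPM in frontal (n = 3) and 47.3 ± 1.32 CPM in parietal bone (n = 2), a log2 fold change of -1.59 ± 0.17 (edgeR adjusted p = 8.9e-06). Ppa2, the mitochondrial enzyme, rose from 11.2 ± 2.25 CPM to 31.3 ± 2.02 and 33.1 ± 1.46 CPM, a log2 fold change of 1.51 ± 0.16 (edgeR adjusted p = 1.1e-05). With the osteocyte markers held equal Ppa1 was at 1.32 and rose. The annexin Anxa5 fell (-1.35 ± 0.12) and Entpd5, a nucleoside diphosphatase, rose (0.50 ± 0.14). Without femur library 1 or 4, frontal library 1 or parietal library 4, 3 of the list fell in place of 5.

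Of 16 other transferases of the GALNT family, which start the same kind of sugar chain as GALNT3, 13 were tested, and 2 fell and 1 rose in calvaria, with a median of -0.07, whereas all 13 rose with the osteocyte markers held equal. Galnt4 (-0.93 ± 0.19, edgeR adjusted p = 0.00109) and Galnt15 (-1.08 ± 0.24, edgeR adjusted p = 0.00207) fell, Galnt9 (1.37 ± 0.35, edgeR adjusted p = 0.00544) rose, and Galnt12 had 0.58 ± 0.32 (edgeR adjusted p = 0.129). None of the 13 was called between frontal and parietal bone.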

How the data were processed

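RNA was measured in 8 libraries (3 femur, 3 frontal, 2 parietal), read as paired ends of 37 bases from Nextera XT libraries, per the labels' protocols. The authors deposited raw read counts per gene (43346 genes and 92 spike-in controls, the latter left out), a filtered copy, and a table of scaled signal, the counts times 1 factor per library (a TMM-scaled CPM by its name), used here as an alternative. The submitters' processing notes name the aligner STAR (2.5.2a), the packages edgeR, limma and DESeq2, and mm10 beside GRCm38.p3. How reads were counted, on which annotation and whether by strand is not given in the sources used here, and genes that overlap or lie antisense may therefore share reads.

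Libraries are named by the number in their description label. Counts were fitted with edgeR 4.0.16 in R 4.3.3: filterByExpr (15511 genes), TMM scaling, and a robust quasi-likelihood model with 3 bones as groups over all 8 libraries (5 residual degrees of freedom, biological coefficient of variation 18.57%). All p-values called adjusted p in fold changes come from this model, or from the same model under the named change, with Benjamini-Hochberg adjustment over all genes tested, and a gene passed under 0.05. Alternatives used DESeq2 1.42.0 and limma 3.58.1. The 8 ratios (counts plus 0.5) were compared between 5 skull and 3 femur libraries over all 56 splits (exact permutation test, two-sided, SciPy 1.17.1). The fit was also run on simulated counts in which few genes differed, so that run does not test the scaling where many genes differ.

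The members and lists were chosen with earlier results of these data known. Named were all 10 members, up to 4 genes per list with the smallest p in calvaria against femur, and the 5 genes most like Fgf23 and Phex by Pearson r of log2 CPM among genes with at least 5 CPM in a bone. Symbols matched 42462 genes. Positions are those of GENCODE M21, whose exon lengths may differ from the annotation behind the counts. Protein sequences were not used here.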

Additional observations from a re-analysis of the deposited data

Results flagged for a closer look

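The difference of Fgf23 from femur was not the same in the 2 skull bones: frontal exceeded parietal bone by a log2 fold change of 1.98 (edgeR adjusted p = 0.0361), with 4.91 to 15.3 CPM in 3 frontal and 1.68 to 3.01 CPM in 2 parietal libraries.

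The same test set Slc20a1 apart, at 0.775 (edgeR adjusted p = 0.0281), with 58.9 to 70.2 CPM in frontal and 36.5 to 37.5 CPM in parietal bone. Both calls were lost without any 1 of 4 libraries (femur 2, frontal 1, parietal 2 or parietal 4), with log2 fold changes of 1.40 to 2.48 for Fgf23 and 0.70 to 0.83 for Slc20a1.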

How the results depend on the processing

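Over the alternatives, 580 member fold changes kept direction and side of the threshold, 34 reversed, 11 newly passed and 23 no longer passed. The scale mattered most. With the osteocyte markers held equal, calvaria against femur had 2 members lower and 5 higher, frontal 2 and 4, and parietal 2 and 3. Reversed there were, in calvaria, Fgf23 (2.25), Galnt3 (0.59), Enpp1 (0.56), Ank (0.059), Alpl (0.26), Slc20a1 (2.54), Slc20a2 (2.15), Fgfr3 (1.60), Vdr (2.15), Pth1r (2.30), Xpr1 (2.17), Slc25a3 (2.62), Anxa5 (1.54), Ppa1 (1.32), Galnt4 (1.92) and Galnt15 (1.80). In frontal bone these were Galnt3 (0.79), Enpp1 (0.39), Ank (0.31), Alpl (0.48) and Slc20a2 (2.69). In parietal bone they were Fgf23 (1.03), Galnt3 (0.38), Enpp1 (0.73), Alpl (0.051), Slc20a1 (1.96) and Slc20a2 (1.60), and between the skull bones Fam20c (0.18). With the osteoblast markers held equal, 6 members were lower and 1 higher in calvaria, 5 and 3 in frontal, and 6 and 0 in parietal bone. Reversed there were, in calvaria, Fgf23 (0.61), Slc20a1 (0.92), Slc20a2 (0.53), Vdr (0.54), Pth1r (0.59), Xpr1 (0.52), Slc25a3 (1.02), Galnt4 (0.24) and Galnt15 (0.12), in frontal Slc20a2 (1.32), in parietal Slc20a1 (0.084), and between the skull bones Fam20c (0.64) and Enpp1 (0.090). These scales differ from TMM by construction. Without a filter on low counts, 1 member was lower in frontal than in parietal bone (Enpp1), and the cause was not tested. The settings for pathway genes were added after seeing the data.

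Leaving out 1 library in turn gave 7 to 9 members lower in calvaria, 6 in frontal and 8 to 9 in parietal bone against femur, and 0 to 2 higher and 0 to 2 lower in frontal against parietal bone. Signs turned for Fgf23 (-0.22 to 0.66) and Slc20a1 (-0.020 to 0.11) in frontal against femur, for Galnt3 (-0.071 to 0.19) and Alpl (-0.26 to 0.36) in frontal against parietal bone, and for the ratios Alpl to Enpp1 (-0.47 to 0.041) and Alpl to Ank (-0.083 to 0.42). None of these passed in the fit to all libraries. Alpl to Enpp1 was 0.055 with the frontal libraries alone.

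Whether libraries of the same number come from the same animal is not stated. Their deviations from the bone mean correlated by -0.0887 to 0.143, and not every library correlated best with its own number. With 2 or 3 libraries per bone, these correlations cannot decide whether the libraries are paired. With the number as a block, 0 members were higher in frontal than in parietal bone (Fgf23 1.68, adjusted p = 0.108; Slc20a1 0.76, adjusted p = 0.0989), edgeR called 0 genes there (3504 at an unadjusted p under 0.05), and Galnt3 was at -0.14. Over calvaria, Slc20a1 no longer passed with the block (-0.32, adjusted p = 0.0613). Low counts limit Fgf23 and Phospho1.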

Other observations

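Among 11105 genes ranked by Pearson r of log2 CPM over the 8 libraries, those most like Fgf23 were Armh3 (r = 0.979), Kcna3 (0.961), Tpra1 (0.956), Xylt1 (0.95) and Zfp346 (0.946). Armh3 had 10.5 CPM in frontal library 1, its highest, and 3.59 and 4.17 CPM in parietal libraries 2 and 4, its lowest, where Fgf23 was highest and lowest too. Among the members, Slc20a1 was closest to Fgf23 (0.897) and Enpp1 (0.0118) and Phex (0.0507) were farthest. Those most like Phex were Plod2 (r = 0.9985), Ednrb (0.998), Cd109 (0.998), Maged1 (0.998) and Prkci (0.998), and among the members Enpp1 (0.993). The 8 libraries fall into 3 bones and share depth and scaling, so these r describe the ranking and carry no test.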
